A study of Naumovozyma castellii with 4 samples.

Results

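Of the 5688 genes on a custom array for the yeast Saccharomyces castellii, 336 carry an identifier that ends in the letter d after a contig number and a gene number, as in Scas_624.0d. They were chosen by this spelling alone, without any measured value, and are called suffix d genes below. What the letter stands for is not given in the sources used here. Another 26 genes end in d and a digit and were kept apart, which left 5326 genes without a suffix. Strain NRRL Y-12630 was grown in rich medium at 30°C, and total RNA of 4 cultures of 450 ml, taken while growth was in mid-log phase, formed 1 group of 4 biological replicates. On each array the RNA of 1 culture, labelled with Cy3, competed with sheared genomic DNA of the same strain, labelled with Cy5. There was no mutant, treatment or second condition, no dyes were swapped, and all arrays lay on 1 slide, so a dye effect on a probe and a slide effect cannot be told apart from the level.

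A contig is a stretch of assembled sequence, and a gene catalogue of a draft genome is largely a list of open reading frames, that is, stretches of codons that no stop codon breaks. In baker's yeast, long open frames are mostly genes with a known product, while short ones, or ones that overlap a longer gene, have often proved hard to tell from frames that arise by chance. Genomic DNA is a useful partner in such a hybridization, because each single-copy sequence is present in it in the same amount. The ratio of RNA to genomic DNA therefore puts genes with different probes on a shared scale. Here a level is this ratio on the log2 scale, as the median of both probes, after quantile normalization over arrays and with the median gene of each array set to 0. Quantile normalization gives all arrays the same distribution of values.

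The suffix d genes were spread over 178 of the 503 contigs, and 104 of these contigs held 1 such gene. In 291 of the 336, the identifier repeated the number of a gene without suffix on the same contig (Scas_715.54d beside Scas_715.54). Another 39 had the number 0, and 6 had a number of their own. The comparison was with the gene without suffix nearest in number on the same contig, which existed for 332 members and came to 331 different genes. Only 4 members had no such gene, and each of these was alone on its contig.

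Suffix d genes were expressed at lower levels than their neighbors. The median level was -0.93 ± 0.02 in suffix d genes and 0.04 ± 0.04 in their nearest genes (SD, n = 4 arrays). By array, from replicate 1 to replicate 4, the median suffix d level was -0.96, -0.93, -0.91 and -0.93, against -0.003, 0.001, 0.08 and 0.07 for the nearest genes. The suffix d median thus lay lower on every array, by 0.97 ± 0.03 on the log2 scale. The array medians of both sets did not overlap, while the levels of their genes did. The nearest genes themselves were close to all genes without suffix, whose median was 0.06 ± 0.003. The 26 genes with d and a digit had a median level of -1.75. The plot of the level distributions shows a shift of the whole suffix d set and a shoulder at its low end. The level was below -2.5 in 56 suffix d genes (16.7%, exact 95% interval 12.8 to 21.1%), against 9 of the 331 nearest genes (2.72%, 1.25 to 5.10%). These intervals and those below cover counting error only.

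**Figure D1:**
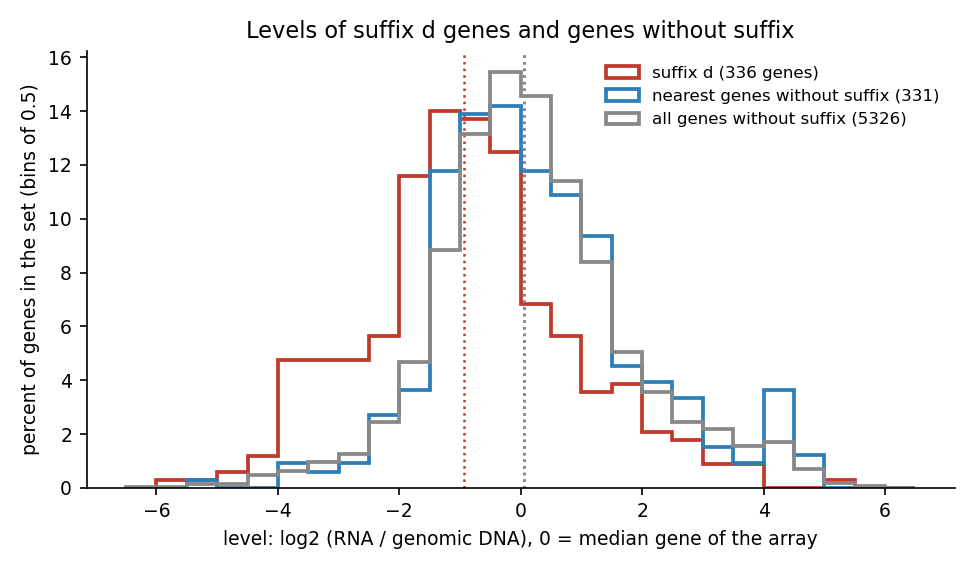
Levels of suffix d genes, of their nearest genes without suffix and of all genes without suffix, as the percent of each set in bins of 0.5 on the log2 scale, with dotted lines at the set medians. The suffix d genes peak about 1 unit below the other sets and hold 16.7% of genes below -2.5, against 2.72% of the nearest genes.

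Over all members, those with dim signals included, the spread of suffix d genes was as wide as that of other genes. Before any normalization, the 5th and 95th percentiles of their log2 ratio were 5.88 ± 0.14 apart, against 5.74 ± 0.17 in the nearest genes and 5.51 ± 0.11 in all genes without suffix (SD, n = 4 arrays). Levels ran between -5.56 and 5.12 in suffix d genes, and between -5.25 and 4.68 in the nearest genes. Among genes with every signal well above background, the spread was narrower in suffix d genes. There the 5th and 95th percentiles of the level were -2.24 and 1.97, against -1.55 and 3.45 in the nearest genes. The SD across genes was 1.32 and 1.54. Replicates were close: the 6 correlations between arrays over 333 suffix d genes lay between 0.977 and 0.995 (Pearson's r, across genes that are not independent replicates). The median SD of a gene between arrays was 0.10 in suffix d genes and 0.10 in the nearest genes.

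Each gene was then set against the median gene with limma's treat test, which asks whether a level lies more than 2-fold from it (two-sided, Benjamini-Hochberg adjusted over 5688 genes at 0.05). Of the 336 suffix d genes, 145 (43.2%) were lower and 40 (11.9%) were higher, and 151 passed in neither direction. Over all genes tested, 18.2% were lower and 22.3% were higher. The nearest genes lay near that background, with 56 of 331 lower (16.9%) and 80 higher (24.2%). Among the genes with d and a digit, 18 of 26 were lower and 1 was higher.

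Many of the low suffix d genes were close to the detection limit of the RNA channel. In 63 of 336 (18.8%, 14.7 to 23.3%), the Cy3 signal of some probe on some array was not well above background by the scanner software's own flag, against 19 of the 331 nearest genes (5.74%, 3.49 to 8.82%) and 312 of the 5326 genes without suffix (5.86%). Replicate 3 was the dimmest for these probes: 14.7% of the 672 suffix d probes missed the flag there, against 4.17%, 5.95% and 4.02% in replicates 1, 2 and 4. Of the 145 members that were lower than the median gene, 53 had such a dim RNA signal, and for these the level is in part only an upper bound. Of the 273 members whose probes passed this flag throughout, for RNA as for DNA, 92 were lower and 33 were higher. Of the 312 nearest genes that met the same condition, 43 were lower and 75 were higher. Of the 5013 genes without suffix that met it, 685 were lower and 1119 were higher. The median level was -0.71 in these members and 0.09 in these nearest genes. In Scas_705.50d alone was the RNA not well above background at any probe on any array while the genomic DNA was so at every one. Its mean RNA signal was 90.5, 94.0, 121 and 98.3 intensity units in replicates 1 to 4, and its mean genomic DNA signal was 5098, 4880, 5091 and 4970.

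The genomic DNA signal was similar in both sets, so the lower ratio went with a lower RNA signal. The median of the mean log2 Cy5 signal was 13.40 in suffix d genes, against 13.52 in the nearest genes. The median of the mean log2 Cy3 signal was 10.26 in suffix d genes, against 11.13 in the nearest genes. At the other end, 8 suffix d genes had a genomic DNA signal that was not well above background at some probe or array, and 7 of the 40 members that were higher than the median gene were among these. For 5 of the 8, namely Scas_30.1d, Scas_104.1d, Scas_248.1d, Scas_251.0d and Scas_458.0d, 1 or both channels were not well above background at any probe on any array, and levels between 2.66 and 3.54 came from ratios of signals near background. Another of the 8, Scas_297.1d, was at 3.61. Scas_30.1d, for example, had a mean RNA signal of 46.5, 78.8, 51.3 and 55.5 and a mean genomic DNA signal of 47.3, 43.8, 43.8 and 42.5 intensity units. Such genes stand apart at the lower left of the plot of signals, and none is named below for its level.

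**Figure D2:**
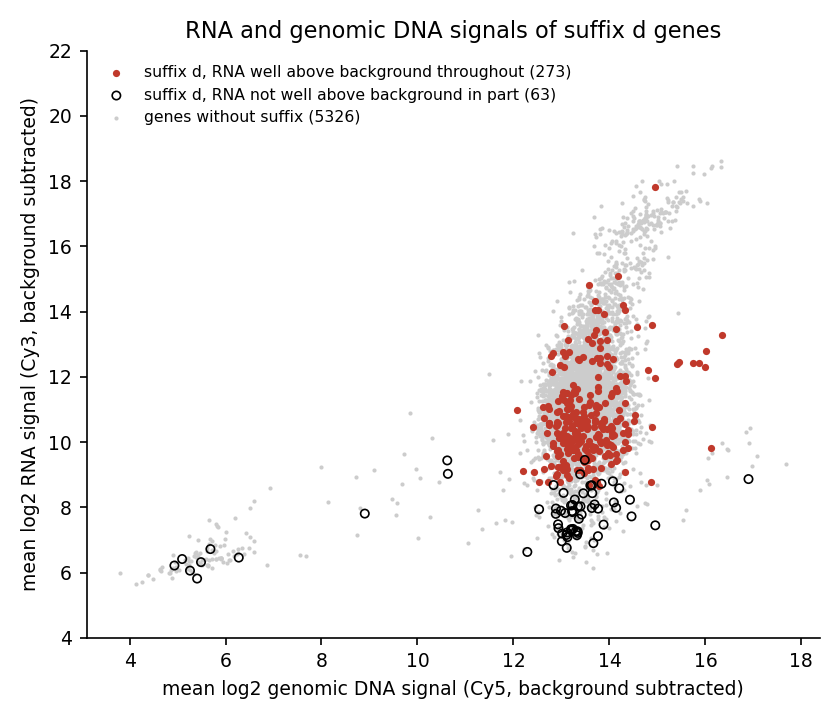
Mean log2 RNA signal (Cy3) against mean log2 genomic DNA signal (Cy5) of each suffix d gene, with filled red points where every RNA signal was well above background (273) and open circles where it was not (63), over the genes without suffix in grey. Most suffix d genes share the narrow range of DNA signal of other genes and differ in RNA signal.

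Among the 270 suffix d genes with every signal well above background and a value on all arrays, the 6 highest lay at or above percentile 92.1 of all genes. Scas_624.0d was the highest of the 270, with a level of 5.05, 5.19, 5.29 and 4.95 in replicates 1 to 4. Its mean, 5.12 ± 0.15 (SD, n = 4), is 34.8-fold above the median gene (limma treat, adjusted p = 1.91e-08) and ranked 11 among 5688 genes. Its RNA signal lay between 200557 and 264537 intensity units and its genomic DNA signal between 31432 and 32590. Scas_665.18d came next among the 270, with 3.58, 3.34, 3.81 and 3.32 (mean 3.51 ± 0.23, adjusted p = 3.69e-07). Scas_557.3d had 3.19, 3.31, 3.16 and 3.29 (mean 3.24 ± 0.07, adjusted p = 3.67e-08). The gap between Scas_624.0d and Scas_665.18d exceeded the spread of both, whereas Scas_665.18d and Scas_557.3d were close to each other on replicates 2 and 4. Scas_699.9d (2.90 ± 0.09), Scas_683.2d (2.81 ± 0.11) and Scas_569.0d (2.60 ± 0.06) completed the 6 highest, all past the same test. These levels were much smaller when a loess curve on brightness was removed within arrays: Scas_624.0d then had 0.38, below the 1.01 of Scas_665.18d, and Scas_557.3d had 0.18, and with the scanner's processed signals they had 0.68, 1.45 and 0.60. Of the 6, the call against the median gene held only for Scas_683.2d under loess, at 1.53, and for Scas_683.2d and Scas_665.18d with processed signals. The range of Scas_683.2d over arrays overlapped those of Scas_699.9d and, by its lowest value, of Scas_569.0d.

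Their differences from the nearest genes went in both directions. Scas_557.3d lay 3.48 ± 0.21 above Scas_557.3, and Scas_683.2d lay 2.64 ± 0.13 above Scas_683.2 on the log2 scale (adjusted p = 9.39e-08 and 2.11e-07). Scas_624.0d was above Scas_624.1 by 1.78 ± 0.18, and Scas_569.0d was above Scas_569.1 by 1.47 ± 0.11. Scas_665.18d differed from Scas_665.18 by 0.82 ± 0.16, which did not pass the test of a 2-fold difference, and Scas_699.9d was lower than Scas_699.9, with a difference of -1.17 ± 0.13 (adjusted p = 0.037). By limma's treat test this last call was lost without replicate 3 (adjusted p = 0.137) or replicate 4 (adjusted p = 0.105), and the differences of Scas_624.0d, Scas_699.9d and Scas_569.0d turned sign under loess and with the scanner's processed signals, to -0.63, 0.57 and -1.27 under loess. The differences of Scas_557.3d and Scas_683.2d were 0.33 and 0.36 under loess and 0.74 and 1.04 with processed signals, and neither was called in either setting. Among the 150 most highly expressed genes that shared no stretch of 25 bases with another gene and were well above background throughout, 2 were suffix d genes (1.33%). Among the 150 least expressed, 20 were (13.3%), against 4.94% of the 5122 genes that met these conditions.

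The lowest members with all signals well above background were Scas_649.0d and Scas_715.54d. Scas_649.0d had levels of -3.74, -3.98, -4.44 and -3.996 (mean -4.04 ± 0.29, adjusted p = 4.08e-07), with an RNA signal between 646 and 1144 intensity units over a genomic DNA signal between 69757 and 78955. Its probes shared 25 bases with a probe of Scas_523.1, itself at -4.39, so these genes may not have been measured apart, which was not tested. The genomic DNA signal of both was far above that of the median gene. Scas_715.54d had -3.97, -3.99, -3.20 and -4.07 (mean -3.81 ± 0.41, adjusted p = 2.78e-06). It had the largest SD of the 270, through replicate 3, where the RNA signal of its second probe was 742 intensity units, against 300.0, 243 and 291 on the others. Scas_715.47d, Scas_710.6d, Scas_583.0d and Scas_656.6d had mean levels of -3.01, -2.98, -2.87 and -2.76, and each passed the test. Under loess these 6 lowest members had levels between -4.76 and -1.09, and the call of Scas_710.6d was lost. Levels below that of Scas_649.0d were found only among members with dim RNA, down to -5.56 in Scas_558.4d and -5.20 in Scas_607.3d. Scas_558.4d also shared 25 bases with probes of Scas_196.1 and Scas_535.2, at -6.10 and -5.25, so it may not have been measured apart. Its mean log2 genomic DNA signal was 16.90, where the median gene had 13.49.

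Set against their nearest genes, 160 of 332 suffix d genes were lower (48.2%) and 46 were higher (13.9%) by limma's treat test on the difference, where over all 5493 genes with such a difference 25.9% were lower and 23.2% higher. The median difference was -1.09 in suffix d genes, against -0.06 over all genes without suffix. By sign alone, 215 members were below their nearest genes on all 4 arrays and 83 were above on all 4. This is 64.8% of suffix d genes below, where over all 5493 genes 47.8% were below and 43.1% above on all 4. Of the 160, 109 were also lower than the median gene, and in 62 the nearest gene was higher than the median gene. The choice by difference itself favors low members and high nearest genes, so these counts only describe the 160. The RNA signal of 52 of the 160 was dim at some probe or array. Likewise, of the 46, 22 were themselves higher than the median gene and 24 had a nearest gene that was lower. Across members, the level hardly followed that of the nearest gene (Pearson's r = 0.08 over 332 genes, and 0.10 over 5135 genes without suffix, both given as a description of values from the same arrays).

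**Figure D3:**
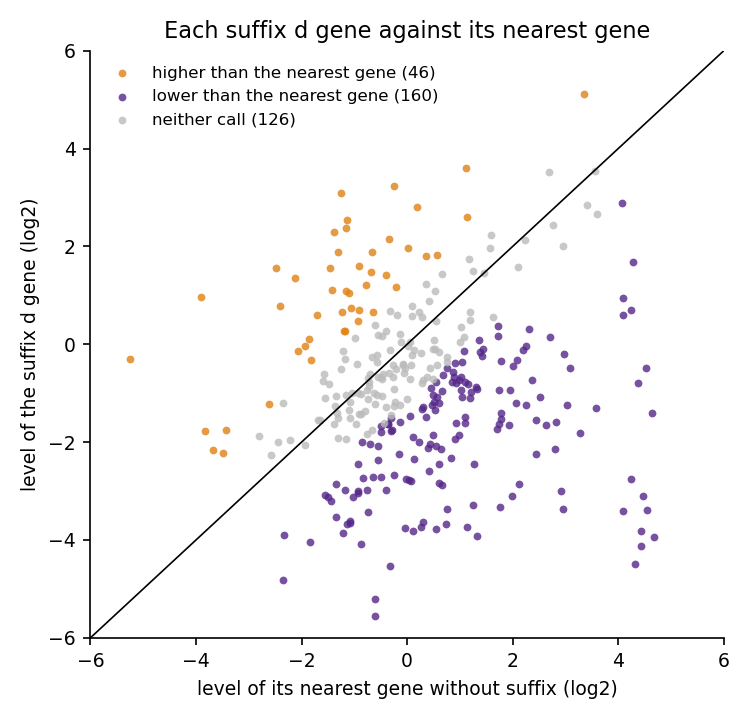
Level of each suffix d gene against the level of its nearest gene without suffix (log2, mean of 4 arrays), coloured by limma's treat test on the difference, with the line of equal levels. Of 332 pairs, 160 passed the test as lower and 46 as higher.

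Among the 270 members well above background with all values, the 5 most negative differences were against nearest genes at or above percentile 95.1. The suffix d genes of these 5 pairs were at or below percentile 35.0. Scas_715.54d was 301-fold lower than Scas_715.54: its levels are given above, and those of Scas_715.54 were 4.33, 4.57, 4.34 and 4.46 (difference -8.23 ± 0.47, adjusted p = 1.65e-08). The genomic DNA signals of this pair were alike, between 28952 and 31166 in Scas_715.54d and between 24368 and 27972 in Scas_715.54. The RNA signals were between 387 and 654 in Scas_715.54d and between 94358 and 126886 in Scas_715.54. Scas_720.19d had levels of -1.63, -0.9999, -1.38 and -1.58, against 5.07, 4.37, 4.51 and 4.58 for Scas_720.19 (difference -6.03 ± 0.56, adjusted p = 1.64e-07). In replicate 2 the second probe of Scas_720.19d, the lower in ratio, was left out as non-uniform. Scas_637.22d, Scas_544.7d and Scas_574.5d followed, with differences of -5.17 ± 0.20, -5.09 ± 0.10 and -5.01 ± 0.18. In these 5 pairs the 4 values of the suffix d gene and of its nearest gene were far apart. Scas_637.22d and Scas_574.5d were within 2-fold of the median gene, at -0.79 and -0.49, and their nearest genes were at 4.38 and 4.52. The genomic DNA signal of Scas_637.22d was between 77381 and 86982, against 20573 to 22418 in Scas_637.22. Its probes also shared 25 bases with a probe of Scas_332.1d, so Scas_637.22d may not have been measured apart. Under loess the differences of Scas_715.54d and Scas_637.22d were -3.50 and -4.70 and kept their calls, while those of Scas_720.19d, Scas_544.7d and Scas_574.5d, at -0.50, -1.17 and -0.90, did not. With processed signals, that of Scas_720.19d, at -1.24, was the only one of the 5 to lose its call.

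Altogether 32 of 332 suffix d genes (9.64%) lay more than 16-fold below their nearest gene and passed the test, against 2.59% of all 5493 genes with such a difference, and 25 of these nearest genes were higher than the median gene. In 21 of the 32 the RNA signal was dim in part. Among those dim members were the 3 lowest differences of all, in Scas_682.20d (-8.83), Scas_647.19d (-8.62) and Scas_639.11d (-8.56). More than 16-fold above lay 4 members (1.205%), against 2.35% of all genes. Among them was Scas_458.0d (difference 4.35), in which neither channel was well above background at any probe on any array.

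The largest positive differences turned mostly on a low nearest gene. Scas_535.2d was near the median gene, with levels of -0.40, -0.42, -0.05 and -0.36, against -5.13, -5.26, -5.24 and -5.37 for Scas_535.2 (difference 4.94 ± 0.21, adjusted p = 1.24e-08). Scas_535.2 had a genomic DNA signal between 80734 and 118783 intensity units and shared 25 bases with probes of other genes. Scas_552.0d had levels of 1.06, 0.83, 1.02 and 0.92, against -3.70, -3.96, -3.87 and -4.08 for Scas_552.1 (difference 4.86 ± 0.11), whose RNA was not well above background in part. This difference turned to -0.90 under loess, and the level of Scas_552.0d turned to -1.56 there and to -1.17 with processed signals. The probes of Scas_552.0d differed from each other more than those of any other named member, with mean log2 ratios of -0.47 and -2.15, and shared 25 bases with Scas_550.9. Scas_579.14d was 4.05 ± 0.33 above Scas_579.14, also a gene with dim RNA. In the other 2 pairs both genes were well measured. Scas_701.36d had levels of 2.23, 2.43, 2.31 and 2.24, against -1.44, -1.41, -1.33 and -1.36 for Scas_701.36 (difference 3.69 ± 0.11, adjusted p = 1.52e-08). Scas_644.1d had 2.69, 2.69, 2.23 and 2.52, against -1.23, -1.31, -0.93 and -1.10 for Scas_644.2 (difference 3.67 ± 0.38, adjusted p = 6.74e-07), which fell to 0.48 under loess and was not called there. The probes of each of these 2 members shared 54 of their 55 bases, so their agreement says little about separate parts of the gene.

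**Figure D4:**
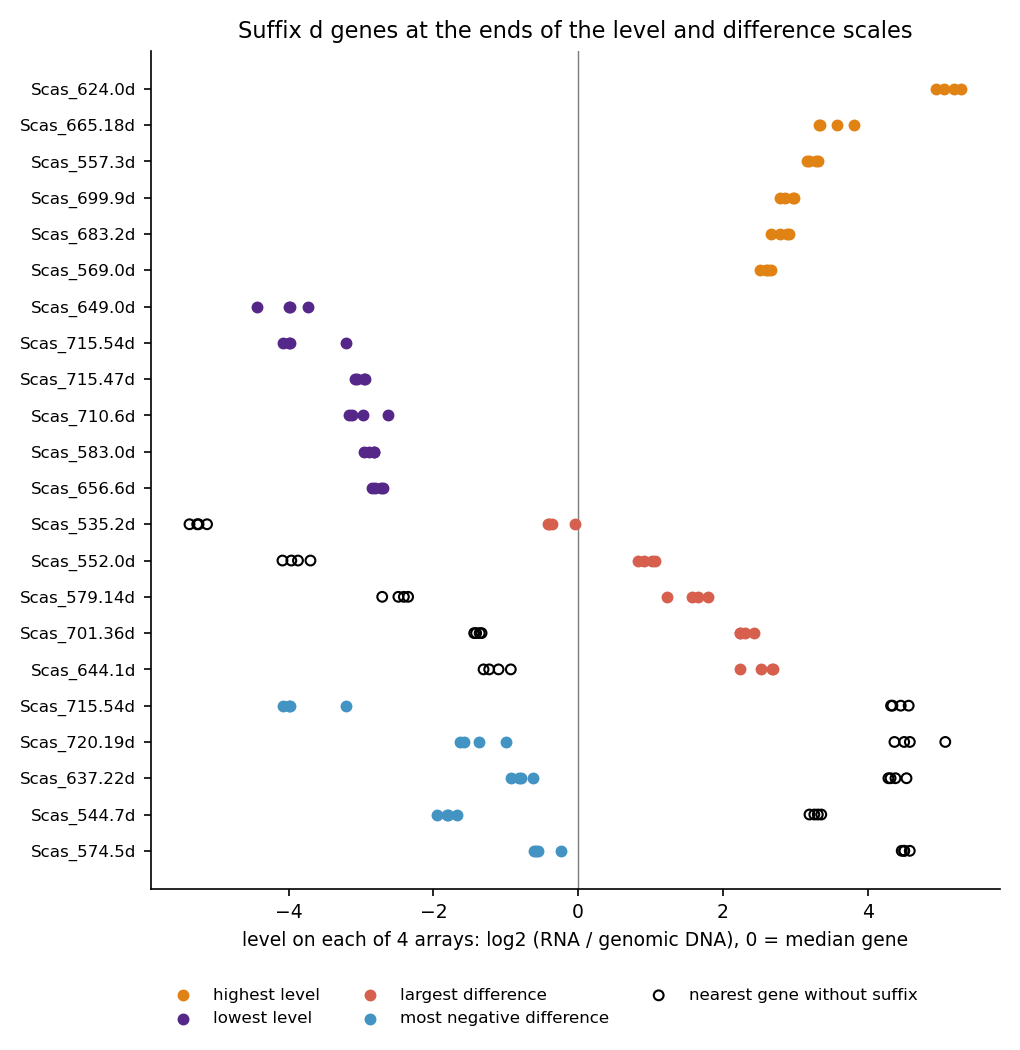
Levels on each of the 4 arrays (log2, 0 is the median gene) of the 6 highest and 6 lowest suffix d genes and of the 5 with the largest and the 5 with the most negative difference, with the nearest gene of the last 10 as open circles. Filled and open circles of a pair do not overlap in any of the 10 rows that show both.

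By kind of identifier, the 291 suffix d genes that repeat the number of a gene without suffix had a median level of -0.999, with 44.7% lower and 9.97% higher than the median gene. The 39 with the number 0 had a median of -0.30, with 33.3% lower and 23.1% higher (13 and 9 genes). The difference between these classes was not tested. Of the 6 highest members, Scas_624.0d and Scas_569.0d have the number 0, and so do Scas_649.0d and Scas_583.0d of the 6 lowest. The share with dim RNA was 18.6% in the first class and 20.5% in the second. By contig, all 6 members on contig 655 were lower than the median gene, between -3.67 and -1.34 with a median of -3.31, against a median of 0.01 for the 21 genes without suffix there, of which 5 were lower. In Scas_655.0d, Scas_655.8d, Scas_655.11d and Scas_655.17d the RNA was dim in part. On contig 691, 5 of 6 members were lower, against 7 of 41 genes without suffix. Contig 720 held the most members, 11, of which 5 were lower, against 22 of 104. Other contigs also held many low members, for example 4 of 4 on contig 611, against 3 of 12 genes without suffix. On contig 717 it was 3 of 3, against 15 of 78. On some contigs few or none were low: 1 of 6 members on contig 710, against 8 of 48 genes without suffix, and 0 of 5 on contig 692, against 4 of 46. On contig 579 it was 0 of 3, and members lay between 1.56 and 2.23.

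Overlapping probes were more frequent in suffix d genes. The 2 probes of a gene shared at least 15 bases end to end in 123 of 336 suffix d genes (36.6%, 31.4 to 42.0%), against 66 of 331 nearest genes (19.9%, 15.8 to 24.7%). They shared 46 bases or more in 17.0% of suffix d genes, against 3.63% of the nearest genes. Suffix d genes with overlapping probes had a median level of -0.38, against -1.05 in those with 14 or fewer shared bases. In genes without suffix the medians were 0.31 and 0.01. Where the probes were separate and well above background, they differed by a median of 0.39 in log2 ratio in 172 suffix d genes, against 0.33 in 251 nearest genes, and correlated with r = 0.880 and 0.938 across genes. Of the 270 members well above background with all values, the 2 whose probes differed most were Scas_552.0d, given above, and Scas_692.32d, with mean log2 ratios of -4.118 and -2.498. Scas_692.32d had levels between -1.10 and -0.96, so its arrays were close although its probes were not. Of the same 270 members, Scas_692.21d had, after Scas_715.54d, the largest SD between arrays, with levels of -0.61, -0.57, -0.42 and -1.32. Its first probe was left out as non-uniform in replicate 3 and its second in replicate 4. The levels of these replicates thus rest on different probes, with mean log2 ratios of -3.18 for the first and -2.66 for the second.

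Some suffix d genes shared probe sequence with each other. A stretch of 25 bases was shared with a probe of another gene in 21 of 336 suffix d genes (6.25%, 3.91 to 9.40%), against 2.72% of the nearest genes, and always on the same strand. In 15 of the 21 the other gene was a suffix d gene too. Scas_623.17d, Scas_635.8d and Scas_721.96d, on 3 contigs, had levels of -1.02, -1.17 and -1.40 and mean log2 genomic DNA signals of 15.73, 15.88 and 15.98, where the median gene had 13.49. Scas_332.1d and Scas_637.22d were as bright in genomic DNA, with 16.01 and 16.35. Scas_597.15d and Scas_611.9d had nearly the same level, -2.07 and -2.04, and a genomic DNA signal of 13.97 and 13.96. Other pairs were further apart: Scas_685.13d and Scas_706.43d had -3.04 and -1.76, and Scas_485.3d and Scas_631.0d had -1.52 and -2.23. Where a stretch is shared, a probe may take up transcripts of both genes, and this was not tested. In members that shared a stretch the median level was -1.52, against -0.86 in the 315 that did not. Their median log2 genomic DNA signal was also higher, at 14.22 against 13.36, and its part in this gap was not tested. In genes without suffix the gap in level went the other way, with medians of 3.35 where a stretch was shared and 0.04 where not.

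Every suffix d gene had an open frame in at least 1 of its probes, and so did every gene without suffix. Read as given, 94.5% of the 672 suffix d probes (92.5 to 96.1%) held at least 1 frame without a stop codon, against 92.9% of the 662 probes of the nearest genes (90.7 to 94.7%). On the reverse complement the share was 81.0% (77.8 to 83.9%), against 83.7% (80.6 to 86.4%). In both sets, then, the letters as given were open more often than their complement. As given, 44.5% of suffix d probes (40.7 to 48.3%) were open in 2 or 3 frames, against 38.5% (34.8 to 42.3%) in the nearest genes. With 1 probe a gene, which leaves out the second probe of overlapping pairs, the shares were 41.4% (36.1 to 46.8%) and 39.0% (33.7 to 44.5%), so these intervals overlapped widely. Likewise 2 open frames on the reverse complement were found in 28.0% of suffix d probes, against 33.7%, but with 1 probe a gene in 30.4%, against 30.8%. An open frame that ended in a stop codon at the last base of the probe was found in 13.1% of suffix d probes, against 16.6%, and with 1 probe a gene in 15.5%, against 14.2%. The frames thus gave no difference between the sets that held with 1 probe a gene. Where the probes of a gene did not overlap, both were also counted. Of these 426 suffix d probes, 41.3% (36.6 to 46.2%) were open in 2 or 3 frames as given. The share was 34.3% (30.3 to 38.6%) of 530 probes in the nearest genes and 35.1% of 8772 in genes without suffix. This gap was not tested. The median GC content was 38.2% in suffix d genes and in the nearest genes. Where the probes overlapped, they were joined, and a frame without a stop codon ran through the whole stretch in 116 of 123 suffix d genes (94.3%), against 65 of 66 nearest genes (98.5%). Of the named members, 11 of the 12 probes of the 6 highest and 11 of the 12 probes of the 6 lowest had at least 1 open frame, the exceptions being a probe of Scas_624.0d and a probe of Scas_656.6d. The probes of a gene are not independent, and neither are the frames of a probe.

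The sets also differed in the codons of the open frame. In highly expressed genes of baker's yeast, a small set of codons is preferred, those read by abundant tRNAs, and 23 such codons were counted in probes with exactly 1 open frame. In suffix d genes they made up 42.8 ± 12.8% of the codons of that frame and 37.8 ± 8.4% of the other frames (SD over 336 probes). In the nearest genes they made up 48.1 ± 16.2% of the open frame and 37.0 ± 8.6% of the others (360 probes). The excess in the open frame was thus 5.005 percentage points in suffix d genes and 11.1 in the nearest genes, and 9.69 in all genes without suffix. In genes whose probes did not overlap it was 4.25 points in suffix d genes and 8.68 in the nearest genes. Among genes lower than the median gene the excess was 5.10 points in suffix d genes, 6.99 in the nearest genes and 4.93 in genes without suffix. Among genes called in neither direction it was 4.10 points in suffix d genes, 8.53 in the nearest genes and 7.18 in genes without suffix. Among genes higher than the median gene it was 9.12 points in suffix d genes (32 probes), against 20.1 in genes without suffix (1332 probes). The share of preferred codons followed the level less in suffix d genes, with r = 0.14 over 239 genes, against 0.41 over 4202 genes without suffix. These values are descriptions, since the codon set was chosen after levels had been seen and the sets differ in level.

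**Figure D5:**
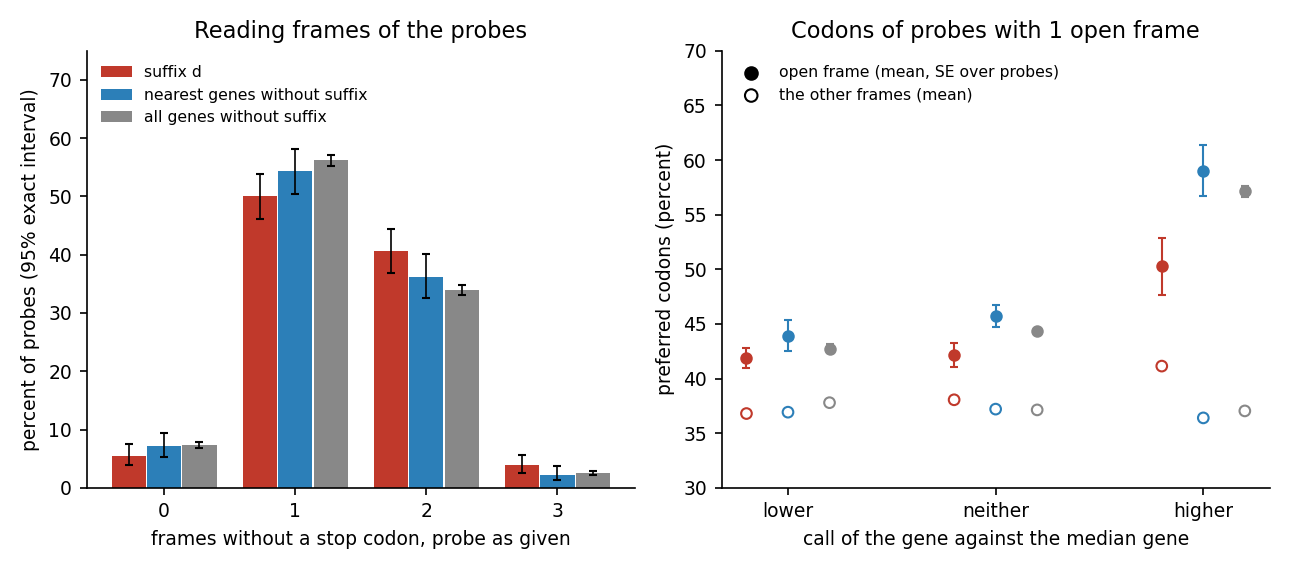
Left, percent of probes with 0, 1, 2 or 3 frames free of stop codons, read as given, with exact 95% intervals, in suffix d genes, their nearest genes and all genes without suffix. Right, percent of preferred codons in the open frame (filled, mean with SE over probes) and in the other frames (open circles) of probes with exactly 1 open frame, by the call of the gene. The SE counts both probes of a gene as independent, so it can be too small, most of all where probes overlap. In genes called higher the open frame reaches 50.3% in suffix d genes, against 59.0% in the nearest genes.

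The sizes above depend on how brightness is treated. Under loess, 64 suffix d genes were lower and 12 higher than the median gene, against 8.23% and 4.61% of all genes, and the median difference between the sets shrank to -0.26 ± 0.03. With the scanner's processed signals, 99 were lower and 13 higher, against 11.1% and 6.65% of all genes, and the median difference was -0.49 ± 0.03. In the 4 arrays the log2 ratio correlated with mean brightness across probes at r between 0.378 and 0.453. Such a correlation is positive whenever the RNA signal varies more across probes than the DNA signal. Here the SD of the log2 signal was 1.84 to 1.93 for RNA and 1.19 to 1.34 for DNA. The correlation therefore cannot tell an effect of brightness from expression. A loess curve removes the part of the level that follows brightness, and brightness itself includes the RNA signal.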

How the data were processed

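Total RNA (Cy3) of 4 S. castellii cultures and genomic DNA (Cy5) were hybridized to 2-colour arrays with 11376 gene probes of 55 bases. The deposited scanner files hold intensity values per spot, as median signal and median local background, from Feature Extraction 10.1.1.1 per the file headers. The authors' deposited table holds log2 ratios of Cy3 over Cy5 per gene; it was used as an alternative, and all 22693 values compared lay within 0.0001 of the log2 of the probes' mean ratio, computed from unsubtracted signals of uniform spots. Other flags of the deposited files, such as being well above background, were used as given.

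Background was subtracted, a log2 ratio was formed for each probe, non-uniform spots were dropped (93 to 771 gene probes an array), and the median over probes was quantile normalized and centred. No gene probe was saturated. Levels, and differences from the nearest gene without suffix (ties averaged), were fitted over all genes with limma 3.58.1 (treat, 2-fold minimum, Benjamini-Hochberg at 0.05) in R 4.3.3, after a test on simulated data. Intervals are exact binomial. Differences compare levels of different probes, which rests on the genomic DNA ratio.

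Named members were chosen, among the 270 with every signal well above background and values on all arrays, as the 6 highest and 6 lowest in level, the 5 largest and 5 most negative differences, the 2 largest SDs and the 2 largest differences between probes; others were named after their values were seen. The members and lists were chosen with earlier results of these data known. Of the 336 identifiers, 0 matched the 5867 genes of the reference table, so no gene names, functions or genome positions are given, and planned gene lists and probe placement were not run. The median Cy3 signal of suffix d probes ranged from 1135 to 1385 (background 21.5 to 24) and their median Cy5 signal from 10955 to 11184 (background 52.3 to 57.5). The number of arrays limits the precision.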

Additional observations from a re-analysis of the deposited data

Results flagged for a closer look

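Among 55 groups of 4 array values that were screened (summaries of suffix d genes and the named members), 3 held a value far from the other 3, where chance gives about 1 in 20. The level of Scas_715.54d was -3.20 in replicate 3, against -4.07 to -3.97 in the other replicates. The difference of Scas_710.6d from Scas_710.6 was -0.90 in replicate 3, against -2.15 to -2.08, and its first probe, with an RNA signal of 2515 intensity units there against 189 to 215 elsewhere, was left out as non-uniform on that array. The level of Scas_574.5d was -0.24 in replicate 2, against -0.61 to -0.55, and its second probe, the dimmer in RNA, had no usable value on that array.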

How the results depend on the processing

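Leaving out each replicate in turn moved the members lower than the median gene between 141 and 147, those higher between 40 and 42, those lower than their nearest gene between 154 and 158, those higher between 45 and 46, the median difference between -0.98 and -0.96 and the spread between 5.83 and 5.94. With loess within arrays, 64 were lower and 12 higher than the median gene, 70 lower and 23 higher than the nearest gene, and the median difference was -0.26; 51, 7, 51 and 13 of these were also called without loess. With the scanner's processed signals, 13 were higher than the median gene, 99 lower and 29 higher than the nearest gene, the median difference was -0.49 and the spread 4.05. Without a minimum fold (limma eBayes), 241 were lower and 80 higher than the median gene, and 84 higher than the nearest gene, since that test asks for any difference. Counting only members well above background, an alternative chosen after seeing the data, left 92 lower than the median gene, and only genes well above background left 106 lower than the nearest gene of 257; that setting gave a median difference of -0.77. The median difference was -1.08 with normexp, -0.94 with only probes well above background, -0.93 with deposited values and -0.89 without genes that share a stretch. The spread was 5.63 without background subtraction, 5.40 with normexp, 5.28 with only probes well above background and 6.04 with the probe whose genomic DNA was brighter. The cause of these shifts was not tested, and the correlation of ratio with brightness cannot settle it. Other alternatives to these results kept direction and, for counts, stayed within 1.5 times. The counts against the nearest gene in these settings, and those of eBayes, are given without the share over all genes. They therefore cannot be set against that background.

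Of 728 values of named members under an alternative, 657 kept direction and call, 36 lost the call, 24 gained it and 11 turned. With processed signals the difference turned to -0.82 in Scas_624.0d, 0.79 in Scas_699.9d and -0.66 in Scas_569.0d, and the level of Scas_552.0d to -1.17. With loess those differences were -0.63, 0.57 and -1.27, the level of Scas_552.0d was -1.56, its difference -0.90, and the level of Scas_720.19d 0.059. By limma's treat test the level of Scas_720.19d (adjusted p = 0.012) lost its call without replicate 1 (adjusted p = 0.055). With the nearest gene on each side the difference of Scas_699.9d was 1.07. No paired analysis was possible because there is 1 group. Placement of probes and gene lists were not run. Dim RNA limits how low a level can be measured.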
